A study of Saccharomyces cerevisiae with 12 samples.

Results

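CUP1-1 and CUP1-2 are the yeast metallothionein genes, neighbouring copies of one gene on chromosome VIII. They were examined in ATAC-seq peak lists, in which the Tn5 transposase marks open DNA, as 2 of 6021 protein-coding genes. Their members were all peaks with a summit within 2 kb of either gene, 34 of the 13746 peaks in 12 libraries. The genes were chosen by the fold enrichment of their peaks, which was among the highest away from chromosome ends, so heights and ranks within a list are given as a description. The tests below compare the copies or the groups of libraries, which the choice did not use.

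The 12 libraries came from Saccharomyces cerevisiae BY4741, a haploid laboratory strain, carrying synHPRT1R or synHPRT1. synHPRT1 is a synthetic copy of a human locus and synHPRT1R its reversed sequence. There were 3 libraries each of HPRT1R on a yeast artificial chromosome (YAC), HPRT1R integrated on chromosome XI, HPRT1 on a YAC and HPRT1 integrated on chromosome XI. The medium was SC-Leu for the YAC strains but YPD for the integrated ones, and medium and format therefore cannot be told apart. All cultures grew at 30 °C for 6 h after dilution. All the groups carry a construct, and the labels do not state whether replicates came from separate isolates. The p-values thus refer to library-to-library spread, which may be technical.

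Metallothioneins are small, cysteine-rich proteins that bind copper and keep it from harming the cell. In yeast, the copper-sensing activator Cup2, also called Ace1, binds upstream of CUP1 and switches it on, and the heat shock factor Hsf1 also activates it. Laboratory strains carry CUP1 as a tandem array whose copy number varies between strains, of which the reference assembly shows only these copies. The placement of reads that match both copies is not given in these sources, and their peaks are not independent measurements.

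In the RefSeq R64 gene table, CUP1-1 (YHR053C) lies at VIII 212535 to 212720 and CUP1-2 (YHR055C) at VIII 214533 to 214718, each 186 bp long and read leftwards. Their starts are 1998 bp apart. Between them lies YHR054C (213185 to 214249), an open reading frame also read leftwards, whose end lies just upstream of the CUP1-1 start. At the same distance upstream of CUP1-2 ends RSC30 (215183 to 217834), which encodes a subunit of the RSC chromatin remodelling complex. The ends of RSC30 and YHR054C are likewise 1998 bp apart. CIC1 (210848 to 211978), a gene of ribosome assembly, lies to the left and is read rightwards. The small open reading frames YHR052C-B and YHR054C-B overlap CUP1-1 and CUP1-2.

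Peaks fell at 3 sites, and 33 of the 34 summits belonged to them. A summit lay upstream of CUP1-1 in all 12 libraries, upstream of CUP1-2 in 11, and at the start of YHR054C in 10. Each library thus showed 2 to 4 summits. In HPRT1 YAC replicate 2, 1 peak covered the YHR054C start and the CUP1-2 upstream region and had its summit at the YHR054C start alone. In HPRT1R YAC replicate 1 and HPRT1 integrated replicate 2, 1 such wide peak had its summit upstream of CUP1-2. The missing summits in these 3 libraries are therefore merged peaks, and a base at each site was covered in all 12.

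**Figure D1:**
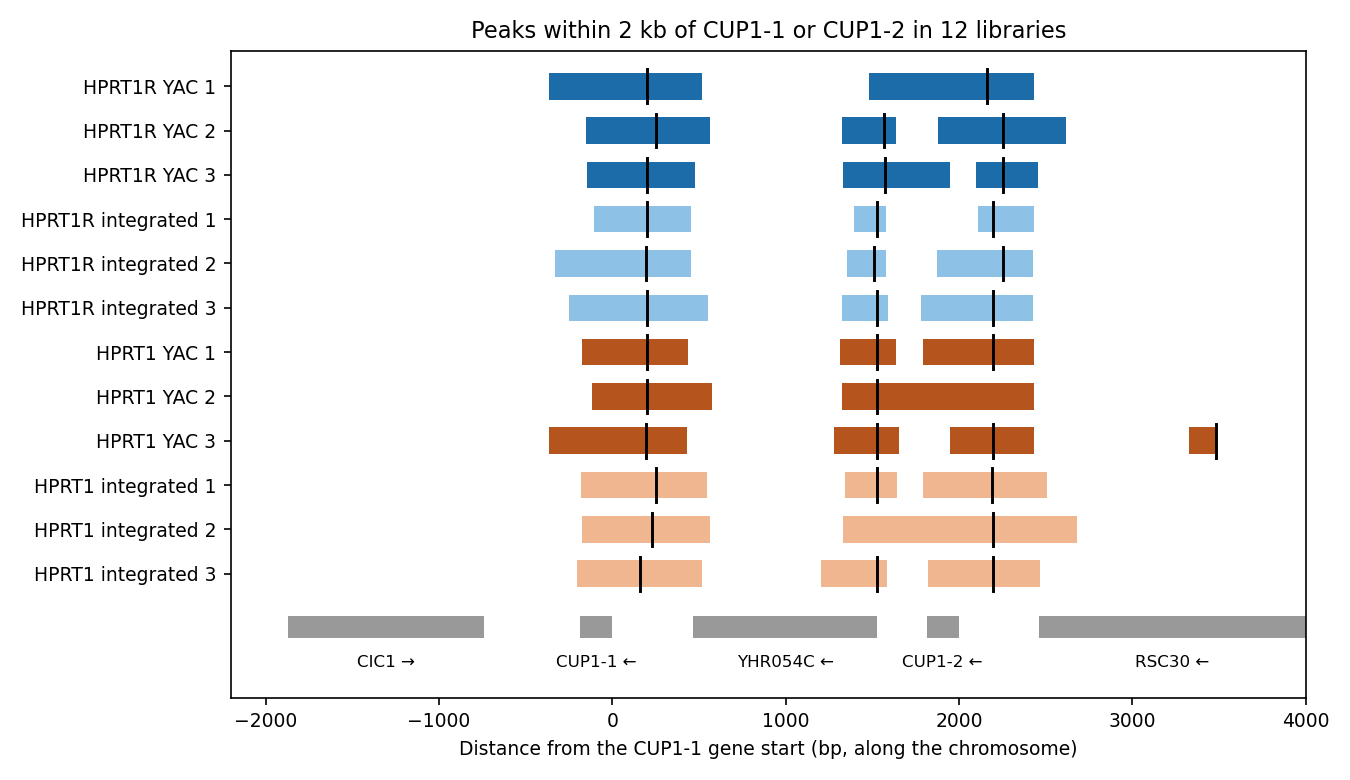
Peaks with a summit within 2 kb of CUP1-1 or CUP1-2, 1 row per library, against distance from the CUP1-1 start in bp. Coloured bars are peaks, black ticks summits and grey bars genes, with arrows for the reading direction. The upstream peak of CUP1-1 stands in all 12 rows, and the 3 rows with a single wide peak further right are the merged ones.

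The open stretches had a shared core at each copy, while their left ends varied, from 214053 to 214831 for CUP1-2 and from 212353 to 212612 for CUP1-1. Upstream of CUP1-1, 537 bp (212612 to 213148) lay inside a peak in all 12 libraries, and upstream of CUP1-2 314 bp (214831 to 215144) did. The region between the CUP1-1 start and the end of YHR054C was covered to 98.5% ± 2.73 (SD, n = 12), and the matching region of CUP1-2 to 92.2% ± 9.44. The peaks also ran into the genes, over 89.1% ± 15.1 of CUP1-1 and 77.4% ± 33.1 of CUP1-2 (SD, n = 12). CUP1-2 itself was uncovered in 1 library, HPRT1R integrated replicate 1.

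The flanks had stretches with no called peak, and the lists give no signal outside peaks. No peak of any library touched the 632 bp from 213294 to 213925 inside YHR054C, and none touched CIC1. Over YHR054C as a whole 23.1% ± 7.43 of bases were in peaks (SD, n = 12), all near its 2 ends. To the right, the 646 bp from 215399 to 216044 in RSC30 held no peak base.

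Summits upstream of the copies took the same few positions. The 23 summits lay 159 to 256 bp upstream of their own gene start, with a median of 198 bp. Upstream of CUP1-1, 8 of 12 lay 192 or 198 bp away and 3 lay 227 to 254 bp away. Upstream of CUP1-2, 7 of 11 lay 190 to 198 bp away and 3 lay 255 or 256 bp away. The most frequent positions were 212918, in 6 libraries, and 214916, in 4 libraries, and both lie 198 bp upstream of their gene. Promoter summits of all genes, counted between 500 bp before and 100 bp after the coding start, had a median of 287 bp upstream and quartiles of 188 and 382 bp. All 23 CUP1 summits thus sat nearer to the coding start than the median promoter summit. Those at 159 and 161 bp were also nearer than the lower quartile, and 27.4% of all promoter summits were nearer than the CUP1 median.

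Within a library, the summits of both copies were 1937 to 2061 bp apart in the 11 libraries that had both. The mean spacing exceeded the gene spacing by 3.27 ± 38.4 bp (SD, n = 11), and 5 of 11 libraries matched it within 10 bp. Right edges, on the far side from the genes, matched the gene spacing within 100 bp in 9 of 11 libraries. Left edges differed from it by -490 to 314 bp, and the value of -490 bp came from a merged peak, in HPRT1 integrated replicate 2. After shifting by 1998 bp, a median of 94.8% of peak bases around CUP1-1 fell on peak bases around CUP1-2, and a median of 79.3% of those around CUP1-2 fell on peak bases around CUP1-1. This comparison ran from 500 bp to the left of each gene start to 460 bp to its right.

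**Figure D2:**
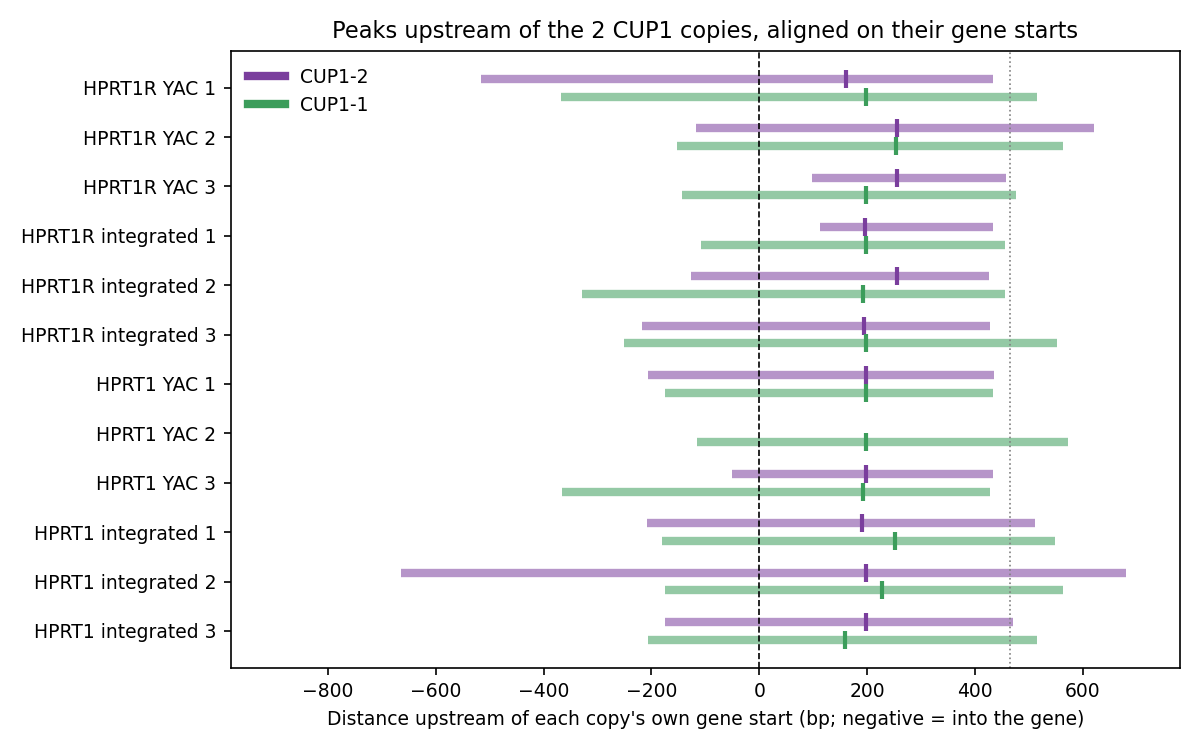
Peaks upstream of CUP1-2 (purple) and CUP1-1 (green) in each library, drawn on distance from each copy's own gene start in bp. Bars are peaks, ticks summits, the dashed line the gene start and the dotted line the end of the next gene upstream. The summits lie between 159 and 256 bp upstream for both copies, while left ends vary more than right ends.

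The copies were compared within libraries on summit pileups, the number of reads stacked at a summit, recovered from the deposited values. Each copy was given the peak with the highest fold enrichment among those nearer to it than to the other copy. For CUP1-2 this was the summit at the YHR054C start in HPRT1R YAC replicate 2 and HPRT1 YAC replicate 2, and the upstream summit in the other libraries. CUP1-2 had 56, 47 and 51 reads in HPRT1R YAC libraries and CUP1-1 had 50, 47 and 45. In HPRT1R integrated libraries CUP1-2 had 31, 42 and 44 and CUP1-1 had 51, 34 and 43. Neither copy was higher throughout.

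In HPRT1 YAC libraries CUP1-2 had 64, 61 and 55 reads and CUP1-1 had 50, 70 and 55. In HPRT1 integrated libraries the values were 54, 50 and 46 for CUP1-2 and 56, 55 and 32 for CUP1-1. CUP1-2 was higher in 6 of 12 libraries, lower in 4 and equal in the others.

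The mean log2 ratio of CUP1-2 to CUP1-1 was 0.04 ± 0.09 (SE, n = 12; p = 0.703, adjusted p = 0.703 over 2 tests, exact two-sided sign-flip permutation test). CUP1-2 peaks were 675 ± 319 bp wide and CUP1-1 peaks 722 ± 91.0 bp (SD, n = 12 each), a difference of -47.4 ± 86.6 bp (SE; p = 0.593, adjusted p = 0.703, same exact test). The width difference was -107 bp without HPRT1 integrated replicate 2 and -15 bp without HPRT1R YAC replicate 2. No difference between the copies was detectable. The placement of reads that match both copies is not given, so this test cannot show whether the copies are alike. With only summits upstream of each gene, an alternative chosen after seeing the data, the log2 ratio was 0.03 and the width difference -50.7 bp (adjusted p = 0.736 each, exact sign-flip permutation test, n = 11).

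The arrangement was not symmetrical around the genes, however. The summits at the YHR054C start ran from 214231 to 214295, on the downstream side of CUP1-2, and 7 of 10 lay within 5 bp of the annotated start. The position 1998 bp to the left, downstream of CUP1-1 (212233 to 212297), was covered by a peak in 0 of 12 libraries. The position 1998 bp to the right of the CUP1-2 upstream summits, inside RSC30 (216877 to 216972), was also covered in 0 of 12. The remaining summit of the 34 was at 216201 in RSC30, in HPRT1 YAC replicate 3 alone, with a fold enrichment of 2.44. Shifted 1998 bp to the left it falls at 214203, 43 bp from the median summit at the YHR054C start.

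That peak was the weakest member and the farthest from the genes, at 1483 bp. The nearest summits beyond the 2 kb limit were at 217957 in HPRT1 integrated replicate 3 and 217978 in HPRT1R integrated replicate 2, 3239 and 3260 bp away, with fold enrichments of 2.86 and 3.03. They lay upstream of RSC30, whose promoter held a summit in 4 of 12 libraries. The promoter of CIC1 held none.

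The heights by site follow, as fold enrichment over the local background, the authors' value for each peak. Upstream of CUP1-1 it was 6.21, 6.23 and 5.49 in HPRT1R YAC libraries, against 8.10, 5.73 and 6.01 in HPRT1R integrated libraries. It was 6.38, 6.63 and 7.07 in HPRT1 YAC libraries, against 6.36, 6.73 and 4.61 in HPRT1 integrated libraries. The lowest and the highest value both came from integrated libraries, and the formats overlapped.

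Upstream of CUP1-2 the fold enrichment was 6.66, 4.88 and 6.07 in HPRT1R YAC libraries and 4.98, 6.29 and 5.78 in HPRT1R integrated libraries. It was 7.93 and 7.01 in HPRT1 YAC replicates 1 and 3, against 5.97, 5.96 and 6.27 in HPRT1 integrated libraries. The 2 highest values came from HPRT1 YAC replicates 1 and 3, and 1 YAC library, HPRT1R YAC replicate 2, had the lowest.

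At the YHR054C start it was 5.84 and 5.85 in HPRT1R YAC replicates 2 and 3, against 3.58, 4.33 and 4.16 in HPRT1R integrated libraries. It was 4.35, 5.35 and 5.95 in HPRT1 YAC libraries, against 3.92 and 4.37 in HPRT1 integrated replicates 1 and 3. The fold ranges of the formats overlapped only between 4.35 and 4.37. As a multiple of the library-wide read level, its summits held 6.26 to 9.74 in YAC libraries and 4.06 to 5.90 in integrated ones (n = 5 each), with no overlap. The library-wide level is the lowest local background at a nuclear peak of the library. The separation at this site was noticed after its values were seen and was not tested. Local background there was 1.24 to 1.53 times the level in YAC and 1.00 to 1.28 times in integrated libraries, and its part in the result was not tested. Of 430 nuclear regions with a peak in all 12 libraries, 0% were higher and 1.86% lower in all 6 YAC than in all 6 integrated libraries on this scale. The YHR054C values come from 5 libraries a side, since 1 library of each format had no summit of its own there. Over these same libraries 0% of regions were higher and 7.67% lower without overlap. These shares use the highest summit of each region, while the YHR054C values come from a single site within a region. The region that holds this site is among the 430, and by its highest summit the formats overlapped.

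**Figure D3:**
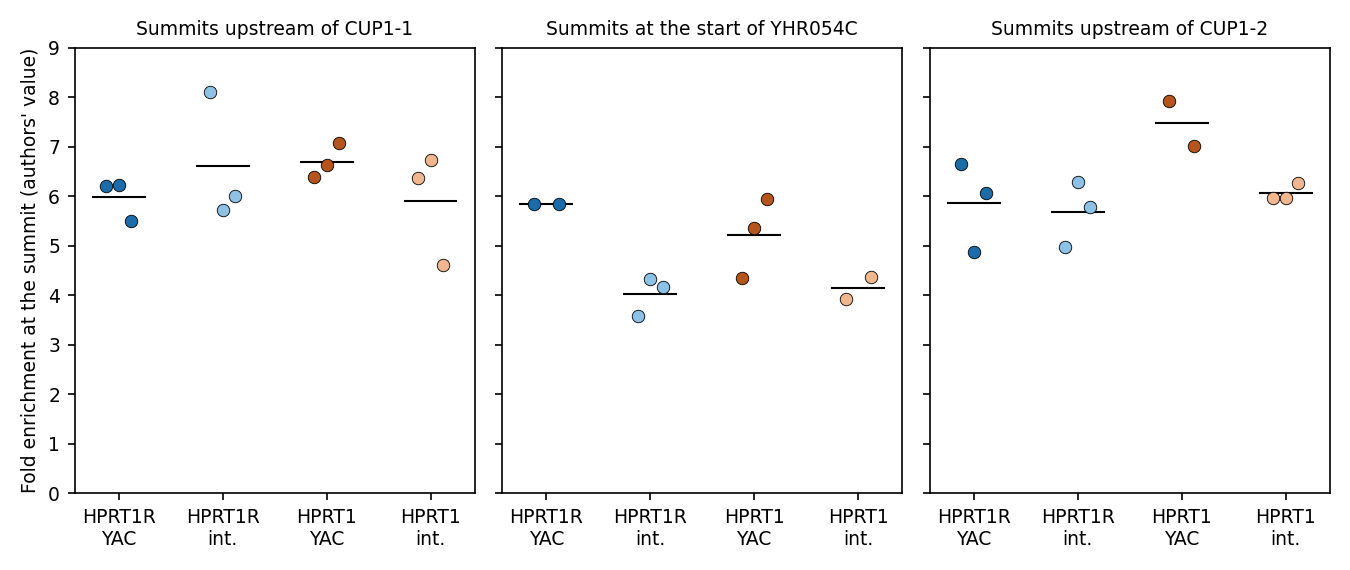
Fold enrichment at the summit (the authors' value, no unit) for each library at the 3 sites, with groups from left to right as labelled and horizontal lines for group means. At the YHR054C start the YAC points reach 4.35 to 5.95 and the integrated points 3.58 to 4.37, while the groups overlap more upstream of CUP1-1.

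By the values that chose the genes, the better upstream CUP1 peak of each library stood high in its list, though not equally so. The better of the upstream peaks ranked 2 to 51 by fold enrichment among peaks more than 20 kb from chromosome ends, with a median rank of 3. In YAC libraries this rank was 2 to 7, and in integrated libraries 3 to 51. Taken singly, peaks upstream of CUP1-1 ranked 3 to 297 (median 5) and those upstream of CUP1-2 ranked 2 to 161 (median 13). Peaks at the YHR054C start ranked 5 to 600 (median 223.5), so not all CUP1 peaks stood high. The lists differ in length, and ranks from different lists show no change. Widths also varied by site. They stood at the 84.4 to 95.9 percentile of their own list upstream of CUP1-1 (median 92.1), at 55.6 to 99.3 upstream of CUP1-2 (median 87.8) and at 24.5 to 98.4 at the YHR054C start (median 52.1).

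Their local background lay slightly above the library-wide level, and higher than at most other regions. Over the 34 summits it was 1.00 to 1.53 times that level, with a median of 1.23, against a median of 1.00 over all nuclear peaks. The level is the lowest such background in a library, so 1.00 is the floor of this ratio. Averaged over the 12 libraries, the background of the CUP1-2 region, with the YHR054C start, ranked 16 and that of the CUP1-1 region 23 among the 430 nuclear regions with a peak in every library. At the other tandem repeats of the reference the range was wide. Peaks within 2 kb of ribosomal RNA genes on chromosome XII had a median background of 198 times the library level and a median fold enrichment of 1.62, against 5.95 for CUP1. Peaks near the sodium pump genes ENA1, ENA2 and ENA5 lay at 1.00 times the level and were found in 6 of 12 libraries. Near the asparaginase genes ASP3-1 to ASP3-4 the median background was 1.62 times the level, with a highest value of 121 times. All 25 of these peaks also lie within 2 kb of a 5S ribosomal RNA gene and are counted there too, so ASP3 is no separate comparison.

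Formats were then compared on the highest CUP1 summit of each library, as a multiple of the library-wide level. In HPRT1R libraries it was 9.95, 8.07 and 9.94 on the YAC and 9.41, 8.45 and 8.11 when integrated, with overlap. In HPRT1 libraries it was 11.1, 10.1 and 9.44 on the YAC and 8.36, 9.17 and 7.89 when integrated, without overlap. Of the 430 regions, 1.16% were higher and 15.1% lower in HPRT1 YAC than in HPRT1 integrated libraries without overlap. The means over both constructs were 9.77 ± 1.00 for YAC and 8.57 ± 0.600 for integrated libraries (SD, n = 6 each).

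The log2 difference, YAC minus integrated, was 0.19 ± 0.08 (SE; p = 0.04, adjusted p = 0.18 over 6 tests with Benjamini-Hochberg, exact two-sided permutation test within constructs). It did not pass the adjusted threshold of 0.05. Within HPRT1 alone it was 0.27 and within HPRT1R 0.10 (p = 0.1 and 0.4, exact permutation tests, whose smallest p is 0.1). Between constructs these differences were -0.17 apart, HPRT1R minus HPRT1 (p = 0.39, exact permutation test of format labels). That test assumes no format effect in either construct, so it cannot show whether the format differences are equal. The labels do not give the CUP1 copy number of the strains, and its part in the format difference was not tested.

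The size of this difference depended on the level used as divisor. The library-wide level was 5.13 to 6.93 reads in YAC and 4.97 to 6.70 reads in integrated libraries, with overlapping ranges. The median region summit was 22 to 29 reads in YAC and 28 to 33 reads in integrated libraries. Over the 430 nuclear regions with a peak in all 12 libraries, the median difference between formats was -0.22 on the log2 scale. With the median summit of the other such regions as the level, the highest CUP1 summit stood at 2.14 ± 0.286 in YAC and 1.63 ± 0.216 in integrated libraries (SD, n = 6 each). The difference became 0.39, with p = 0.02 and adjusted p = 0.12 in the exact permutation test.

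In the table of those regions, CUP1-1 (212353 to 213293) and CUP1-2 with the YHR054C start (213926 to 215398) formed a region each. Of the 430, the CUP1-2 region had the highest YAC-minus-integrated difference, log2 0.30, and the CUP1-1 region the third, 0.21. Their p-values were 0.015 and 0.145, with adjusted p of 0.0949 and 0.282 over all regions (exact permutation test). Of all regions 0% passed the adjusted threshold, while 0.465% were higher and 30.7% lower at an unadjusted p under 0.05. The smallest p of this test is 0.005, so a region could pass only if many of the 430 reached it together. The 0% therefore says little about single regions. On the scale of the median region the differences were 0.51 and 0.42 (p = 0.005, the smallest possible, and 0.03, adjusted p = 0.307 and 0.496, exact permutation tests). On that scale 0.465% of regions lay higher without overlap, not the CUP1 regions among them, and 3.95% of regions were higher and 5.12% lower at an unadjusted p under 0.05. The 2 regions may share reads and do not count as separate evidence.

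**Figure D4:**
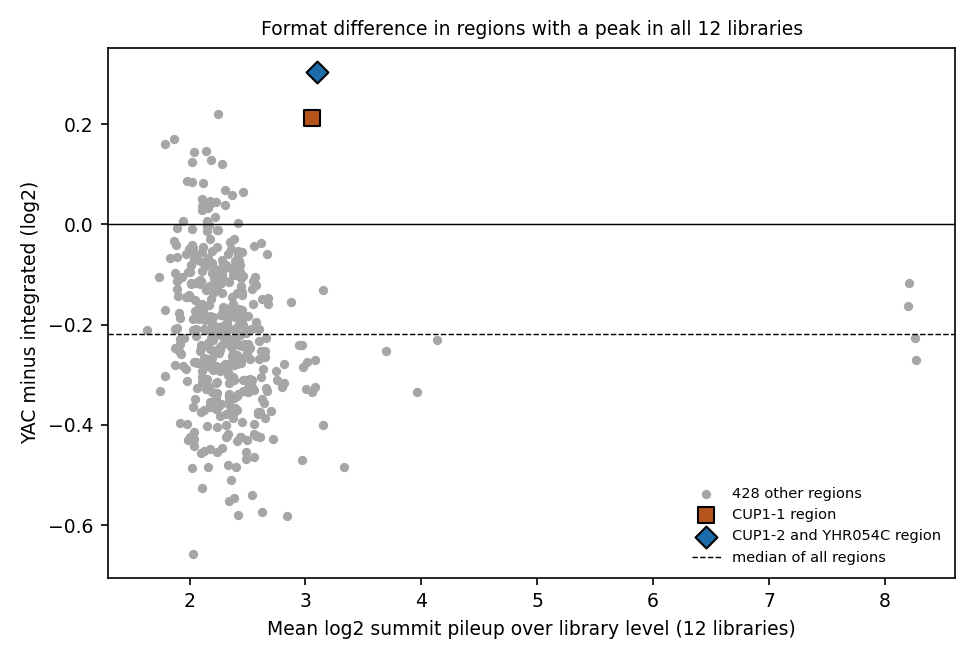
Difference between YAC and integrated libraries in log2 summit pileup over library level, against the mean log2 level over 12 libraries, for the 430 nuclear regions with a peak in all libraries. The CUP1 regions, at 0.30 and 0.21, lie above nearly all grey points, whose median with them is -0.22 (dashed line).

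Between constructs the CUP1-2 and CUP1-1 regions differed by log2 -0.11 and -0.02, HPRT1R minus HPRT1 (adjusted p = 0.887 and 0.989, exact permutation test). At an unadjusted p under 0.05, 6.74% of regions differed (4.65% higher, 2.09% lower). Of these regions 0% passed the adjusted threshold, under the same limit on passing as above, and of all regions 0.233% lay lower without overlap. On the median-region scale 3.49% were higher and 3.49% lower, and 0.698% lay lower without overlap. The highest CUP1 summit was 8.99 ± 0.884 times the library level in HPRT1R and 9.35 ± 1.17 times in HPRT1 libraries (SD, n = 6 each), a log2 difference of -0.05 ± 0.08 (SE; p = 0.55, adjusted p = 0.744, exact permutation test within formats). With the median region as the level it was -0.14 (p = 0.255, adjusted p = 0.383, exact permutation test). Local background at that summit differed by log2 -0.003 ± 0.08 between constructs (adjusted p = 0.975) and by 0.17 ± 0.08 for YAC minus integrated (p = 0.06, adjusted p = 0.18, exact permutation tests). It was 1.15 to 1.47 times the level in YAC and 1.00 to 1.25 times in integrated libraries (n = 6 each). It moved in the same direction as the summit, and its part in the result was not tested.

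Peaks with a summit in the window covered 1836, 1770 and 1605 bp in HPRT1R YAC libraries and 1074, 1568 and 1713 bp in HPRT1R integrated ones. In HPRT1 libraries they covered 1581, 1796 and 1819 bp on the YAC and 1748, 2085 and 1752 bp when integrated. HPRT1R integrated replicate 1 was the lowest of all, and its peaks were the narrowest at each of the 3 sites.

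The difference was 77.8 ± 123 bp for YAC minus integrated (SE; adjusted p = 0.744) and -202.5 ± 123 bp for HPRT1R minus HPRT1 (adjusted p = 0.35, exact permutation tests). Without HPRT1R integrated replicate 1 these became -16.6 bp and -108 bp. Among integrated libraries alone HPRT1R lay below HPRT1 without overlap, by 410 bp on average (p = 0.1, the smallest the exact permutation test allows), and on the YAC the constructs differed by 5 bp. Without HPRT1R integrated replicate 1 the difference among integrated libraries was -221 bp. Of the 430 regions, 2.33% had fewer and 6.28% more covered bases in HPRT1R integrated than in HPRT1 integrated libraries without overlap.

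Other genes of copper handling were counted by promoter peaks, as CUP1 was. For CUP1-1 a promoter summit was present in every library, and for CUP1-2 in 5 YAC and 6 integrated libraries. Of 23 other copper genes, 11 had one in at least 1 library (47.8%), against 37.0% of all 6002 genes. Only SOD1, the copper-zinc superoxide dismutase, had one in all 12. No gene passed an adjusted p of 0.05 between formats in Fisher's exact test (0% of 2040 tested), and 0.539% had an unadjusted p under 0.05, none of them a copper gene. Between constructs 0% passed, and 0.049% had an unadjusted p under 0.05. With 6 libraries a side, a gene could pass only if many of the 2040 separated strongly together. These 0% values therefore say little about single genes.

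Among the sensors, CUP2 had a promoter summit in 4 YAC and 4 integrated libraries, and HSF1 in 5 and 5. MAC1, the activator of copper uptake, and CUP9 had none. The strongest promoter peak of CUP2 had a median fold enrichment of 3.35 and that of HSF1 of 3.51, below the CUP1 sites. Both known activators of CUP1 had peaks at their own promoters in most libraries, which does not show their action at CUP1. Over these 4 regulators a summit was present in 37.5% of gene-library pairs, against 15.6% over all genes. All of these pairs came from HSF1, in 10 libraries, and CUP2, in 8.

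The uptake genes gave a different count, with a summit in 2.08% of gene-library pairs in YAC and 27.1% in integrated strains. Over all genes the shares were 14.3% and 17.0%. CTR1, the high-affinity copper transporter, had a promoter summit in 0 YAC and 4 integrated libraries (p = 0.0606, adjusted p = 1, Fisher's exact test). The metalloreductase genes FRE7 and FRE1 had 0 and 3, and 0 and 2. The vacuolar transporter CTR2 had 0 and 2, and PIC2, a mitochondrial carrier, 1 and 2. CTR3, FRE2 and FET4 had none. In all, 5 of these 8 genes were present in more integrated than YAC libraries and 0 in more YAC libraries, against 1112 and 581 of all genes. The strongest promoter peaks of these 5 had median fold enrichments from 2.65 (FRE7) to 3.27 (PIC2), against 3.53 over all nuclear peaks. Nuclear lists held 913 to 1041 peaks in YAC and 993 to 1303 in integrated libraries. The uptake genes were not tested as a group.

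Among copper enzymes and their loading, FET3, the ferroxidase of iron uptake, had 4 and 5, and CCC2, which loads copper into the secretory pathway, 2 and 1. FET5, a vacuolar relative of FET3, had none. Of 5 copper chaperone genes COX17, which serves the mitochondria, alone had any, in 1 YAC and 2 integrated libraries. PCA1, a metal-exporting ATPase, and SLF1 had none.

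**Figure D5:**
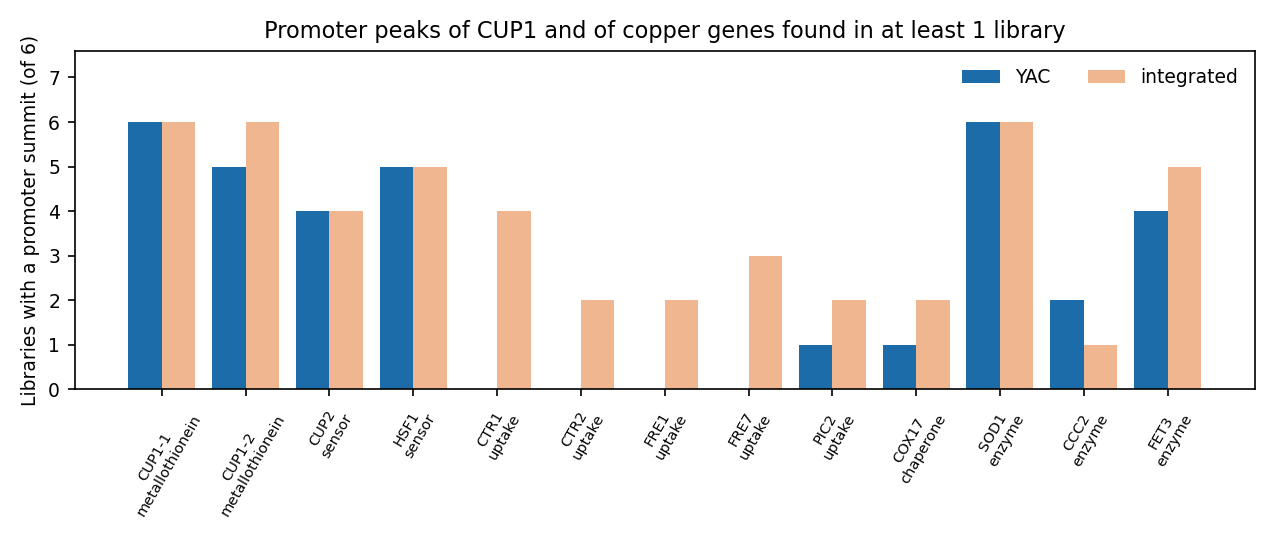
Number of libraries with a promoter summit, of 6 YAC (blue) and 6 integrated (orange), for the CUP1 genes and the 11 other copper genes with any. CUP1-1, CUP1-2, HSF1 and SOD1 reach 5 or 6 in both formats, and CTR1, FRE7, FRE1 and CTR2 have bars only for integrated libraries.

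Across the 12 libraries, the highest CUP1 summit over library level was most like 3 regions near the starts of YNL054W-B (XIV 519454 to 519983, Pearson r = 0.49), GIC2 (IV 1080357 to 1080951, r = 0.39), an effector of the polarity GTPase Cdc42, and CMC4 (XIII 652020 to 654019, r = 0.33). The median over all 430 regions was -0.39. All these values share the library-wide level as divisor, and a correlation of this size is given as a description only.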

How the data were processed

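Each library had its own deposited list of peaks, not pooled. Per the submitters' processing notes, MACS2 2.1.0, Bowtie2 2.2.9, SAMtools 1.9, deepTools 3.5.0 and bcl2fastq 2.20 were used with build sacCer3. Neither caller options nor the handling of multi-mapping reads is stated in the labels. Each deposited row gave a fold enrichment (a ratio to local background) and −log10 p- and q-values at the summit, by the authors' peak caller. The deposited lists held 982 to 1343 peaks. Read totals are unknown.

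Gene positions came from RefSeq R64, the sequence of sacCer3, with strand from systematic names. Under the Poisson model of MACS2 with a pseudocount of 1, fold and p fix a whole pileup and background. A pileup within 0.01 of the deposited −log10 p was found for 99.9% of peaks, including all CUP1 members. The other 13, all near ribosomal RNA genes, were left out of pileup and background values. The library-wide level was 4.97 to 6.93 reads. Low counts limit precision, since members rest on 19 to 70 reads.

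Differences were tested with exact permutation tests in Python 3.11.15 (scipy 1.17.1). Benjamini-Hochberg adjustment was made over 6 tests, over 2 for the copies, or over all 430 regions. Promoter counts were compared with Fisher's exact test, adjusted over 2040 genes. The members, the named copper genes (23 of 24 listed, CRS5 being annotated as a pseudogene) and the tandem repeats were chosen with earlier results of these data known. Besides the genes near CUP1, the text names copper genes with a peak in at least 1 library (those with none are named to complete the list), the tandem repeats and the 3 regions with the highest correlation with CUP1. No sequences were used here.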

Additional observations from a re-analysis of the deposited data

How the results depend on the processing

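Of the 202 alternative values, 62 were counts of called genes or regions, all 0 as in the main tests, and 140 were differences. Most of these counts share the limit on passing given for the main tests. Of the differences 133 kept their sign and 7 changed it, each on leaving out 1 library, and none passed the adjusted threshold under any setting. Part of the 133 could not change, as given below, so their number is no measure of stability. The log2 copy ratio in pileup ranged from -0.0062 (without HPRT1 integrated replicate 3) to 0.11, and the width difference of the copies from -107 to -15 bp. The covered bases ranged from -16.6 to 143 bp for YAC minus integrated and from -268 to -108 bp for HPRT1R minus HPRT1, with -16.6 and -108 bp reached without HPRT1R integrated replicate 1. The local background, HPRT1R minus HPRT1, ranged from -0.044 to 0.046 on the log2 scale, with 0.046, 0.044, 0.031, 0.0020 and 0.011 on leaving out HPRT1R YAC replicate 2, HPRT1R integrated replicate 1, HPRT1 YAC replicate 2 and HPRT1 integrated replicates 1 and 2. The format difference of the highest summit stayed between 0.15 and 0.24 on leaving out each library. The limits on fold enrichment, −log10 q and summit distance could not change that value, since the highest summit of every library passes them. They also left the construct difference of that summit, both background differences and both copy differences unchanged. The median-region level left the background differences practically unchanged, and a replicate block changes only p. With a replicate block, pairing libraries by number, the format difference of 0.19 in the highest summit had p = 0.0625 and adjusted p = 0.188 (exact permutation test), and the counts of called regions stayed at 0. This block allows 64 arrangements. No region could then pass unless most of the 430 reached the smallest p, so these counts are no check. Same-numbered libraries did not deviate together (r from -0.11 to 0.09 over 18 pairs), so the numbers are not taken to pair them. The covered bases, YAC minus integrated, were 51 bp with summits within 1 kb, 5.17 bp within 4 kb and 214 bp at a −log10 q of at least 10, none of them called. That limit left 22 of the 430 regions to test, and depth per summit limits all comparisons, since summits held 19 to 70 reads.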
